A study of Homo sapiens with 8 samples.

Results

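The effect of DZNep on gene expression was examined in HL60 cells that also received vitamin C. HL60 is an established human acute myeloid leukaemia line. VC_DZNep cells received vitamin C (VC) and DZNep for 72 h, and VC cells received vitamin C without DZNep for the same time, so vitamin C was common to both groups. The comparison took all libraries that the labels place in these groups, 4 of the 8 in the series, with 2 libraries per group. The other 4 libraries, DZNep without vitamin C and phosphate-buffered saline (PBS) alone, 2 each, were used to share the estimate of spread and to set the effect of DZNep without vitamin C beside the effect with it. All cells were grown in RPMI medium with fetal bovine serum, and total RNA was made into libraries with an Illumina TruSeq kit. The labels used here give no dose. A single cell line was used, and the labels do not state separate cultures for the 2 libraries of a group, so p-values reflect only the spread between those libraries, which may be technical. Of 9543 genes in the deposited table, 9513 were tested and 30 were left out for a mean value under 10.

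DZNep, 3-deazaneplanocin A, blocks S-adenosylhomocysteine hydrolase (the product of AHCY). The S-adenosylhomocysteine that accumulates inhibits methyltransferases, and DZNep is known to lower EZH2, the catalytic subunit of the histone H3 lysine 27 methyltransferase complex PRC2. Vitamin C keeps iron in its reduced form for the dioxygenases that oxidise methylcytosine (the TET enzymes) and demethylate histones (the JmjC enzymes). Cells short of amino acids, or otherwise stressed, raise the transcription factor ATF4, which switches on genes for amino acid synthesis, uptake and transfer to tRNA, the programme called the integrated stress response.

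Values below are the authors' normalized units. All 8 libraries held the same set of values in a different order of genes, from 2 to 10345 with a median of 88, and each summed to 1988507 units, so sequencing depth is not known and values of different genes are not compared with each other. Among the lowest values the scale is coarse: neighbouring values between 2 and 10 lay up to 1 log2 unit apart, against at most 0.0444 between 50 and 200. Steps above 200 were not measured. High scores recur, such as 4795 and 3648 units for IPO5 in the VC libraries and again in the PBS libraries. Equal high values in 2 libraries therefore need not mean equal expression. The libraries were alike within groups (Spearman's rho across genes 0.983 for VC_DZNep and 0.987 for VC) and less alike between them (0.955 to 0.961). On the first principal component, with 50.4% of the variance, the VC_DZNep libraries lay at 23.9 and 26.2 and the VC libraries at -19.0 and -18.0. Of 14 HL60 and promyelocyte markers, 10 were in the table, and their summed values were 8056 and 8280 in VC_DZNep against 6960 and 7283 in VC. Among them MPO, the myeloperoxidase of primary granules, stood at 3652 and 3652 units in VC_DZNep and 3114 and 3652 in VC, which did not pass the test. Such sums are weighted to genes with large values, such as MPO. Of the 10 markers 2 were called higher (20%) and 1 lower (10%), against 6.89% and 8.14% of all tested genes. The lower one was CTSG, at 8 and 7 units against 42 and 43. Of lymphoid, erythroid and megakaryocyte, and adherent-cell markers, 3 of 18, 3 of 17 and 2 of 14 were in the table. Their summed values were 922 and 1010 in VC_DZNep against 705 and 714 in VC for the lymphoid markers, 474 and 442 against 434 and 434 for the erythroid and megakaryocyte markers, and 248 and 219 against 274 and 216 for the adherent-cell markers. The lymphoid genes CD2 (22 and 38 units against 7 and 6) and CD4 (884 and 962 against 686 and 698) and the endothelial gene PECAM1 (56 and 55 against 34 and 30) were called higher. CD4 is also carried by monocytic cells, and PECAM1 by other blood cells. Leaving out VC_DZNep replicate 2 or VC replicate 2 ended the calls of CD2 and CD4, leaving out VC replicate 1 also ended that of CD4, and PECAM1 was not called without any 1 of the 4 libraries. The limma adjusted p over the alternatives lay between 0.00652 and 0.104 for CD2, 0.00734 and 0.0837 for CD4, and 0.0228 and 0.157 for PECAM1. None of the markers was at 0, since 2 was the lowest value of the table, and the part of such cells in the results was not tested. In bulk RNA, fewer cells of a type and less RNA per cell cannot be told apart.

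Genes that ATF4 and its partners switch on were among the decreases, described further on. The short promoter element through which ATF4 and C/EBP proteins act, CARE (TGATGNAA, where N is any base), was searched for in their promoters. The promoters were those of RefSeq on GRCh38.p14, each 300 bases from 250 before to 50 after a start of the gene, and 7882 of the 9513 tested genes had one. Only the first listed promoter of a gene was searched, so an element at another start would be missed. That start can lie inside the gene. The PHGDH promoter was chr1:119711684-119711983, whereas the gene begins at 119648411. Both strands were searched. The same promoters were also searched for E2F (TTTNGCGC), CRE (TGACGTCA) and AP1 (TGANTCA) elements, each counted separately whether or not it overlapped another. The integrated stress response, amino acid synthesis, cytosolic aminoacyl-tRNA synthetase and amino acid transporter lists together held 75 tested genes, of which 62 had a promoter, and 15 of these held the element. The windows around those 15 matches are shown because their genes recur in the results. Each is read in the direction in which the element reads forward, the element is in capitals, and the SLC3A2 window is shorter because the promoter ends there.

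ASNS: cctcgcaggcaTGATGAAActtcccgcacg
MARS: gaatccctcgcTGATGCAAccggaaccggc
BCAT1: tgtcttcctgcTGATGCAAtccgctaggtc
TARS: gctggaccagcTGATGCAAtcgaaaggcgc
IARS: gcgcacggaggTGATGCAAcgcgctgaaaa
AARS: tctaacttggcTGATGCAActgcgagaaaa
SLC7A1: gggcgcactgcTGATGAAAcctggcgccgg
CHAC1: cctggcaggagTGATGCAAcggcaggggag
SLC3A2: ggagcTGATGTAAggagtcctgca
MTHFD1L: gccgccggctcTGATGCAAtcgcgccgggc
NARS: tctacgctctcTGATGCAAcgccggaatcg
SLC38A1: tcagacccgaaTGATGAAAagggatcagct
ATF3: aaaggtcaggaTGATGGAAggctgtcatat
CARS: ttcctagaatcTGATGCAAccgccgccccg
GOT1: gctgccgagaaTGATGCAAccaatgcaatt

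The match read TGATGCAA in 10 of the 15 windows, TGATGAAA in 3, TGATGGAA in 1 and TGATGTAA in 1. The whole promoters of 3 of these genes follow because they show where the element sits in a gene that moved strongly (CHAC1), in one of the best-known targets of the pathway (ASNS), and in one of the genes whose response differed with vitamin C (BCAT1). The ASNS promoter is chr7:97872359-97872658 on the minus strand, that of BCAT1 is chr12:24949052-24949351 on the minus strand, and that of CHAC1 is chr15:40953221-40953520 on the plus strand. Each is written in the direction of transcription, so the CHAC1 element appears as its reverse complement, TTGCATCA. The first base of the match lay 68, 48 and 209 bases before the start in ASNS, BCAT1 and CHAC1.

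ASNS: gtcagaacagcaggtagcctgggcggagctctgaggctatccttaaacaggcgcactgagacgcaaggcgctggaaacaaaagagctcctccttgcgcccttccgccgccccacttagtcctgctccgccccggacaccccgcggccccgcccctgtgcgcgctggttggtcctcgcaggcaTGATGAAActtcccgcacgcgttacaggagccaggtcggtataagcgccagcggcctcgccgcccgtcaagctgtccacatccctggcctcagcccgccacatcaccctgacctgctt
BCAT1: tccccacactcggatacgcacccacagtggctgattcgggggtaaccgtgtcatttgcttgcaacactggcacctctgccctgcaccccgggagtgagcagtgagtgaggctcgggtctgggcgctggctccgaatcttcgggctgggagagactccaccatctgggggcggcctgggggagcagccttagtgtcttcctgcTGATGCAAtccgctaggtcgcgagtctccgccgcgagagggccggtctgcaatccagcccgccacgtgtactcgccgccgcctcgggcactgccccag
CHAC1: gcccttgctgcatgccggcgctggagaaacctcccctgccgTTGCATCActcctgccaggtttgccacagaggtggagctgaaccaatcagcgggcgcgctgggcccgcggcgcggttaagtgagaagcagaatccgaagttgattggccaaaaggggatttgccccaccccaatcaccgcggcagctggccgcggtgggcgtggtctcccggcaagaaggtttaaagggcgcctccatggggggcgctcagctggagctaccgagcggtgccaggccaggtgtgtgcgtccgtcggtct

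All 15 genes whose promoter held the element were called lower in VC_DZNep than in VC (limma, Benjamini-Hochberg adjusted p under 0.05), with a median log2 fold change of -1.13. Of the 47 listed genes with a promoter but no match, 25 were called lower and none higher, with a median of -0.37. The element stood in 1.67% of the promoters of all tested genes and in 3.62% of the 35116 promoters of the RefSeq table. It stood in 9.27% of the promoters of genes at least 2-fold lower (14 of 151) and in 2.02% of those at least 2-fold higher. Genes of the 4 lists, among them CHAC1, AARS and ASNS, are part of those 14. The lists were chosen with earlier results of these data known, so this share is not separate from them. Outside the 4 lists, 12 of 117 genes with the element were called lower (10.3%), against 7.50% of the 7750 genes without it. The E2F element stood in 15 of the 41 DNA replication promoters (36.6%), against 3.20% of all tested genes. The AP1 element stood in 12 of the 99 promoters of genes at least 2-fold higher (12.1%) and in 4.64% of those at least 2-fold lower, against 4.15% of all tested genes. The CRE element stood in 1.01% and 2.65% of those promoters, against 3.57% of all tested genes. A match is only a description of the letters and does not show that a factor binds there.

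Across all genes, 1429 of 9513 (15%) differed between VC_DZNep and VC, with 655 higher (6.89%) and 774 lower (8.14%). A difference of at least 2-fold was seen for 320 called genes (3.36%), or 208 without VC replicate 1. The 2 VC_DZNep libraries lay wholly above or below the 2 VC libraries for every one of the 1429 genes. The same separation was seen for 29.9% of all tested genes upward and 28% downward, whether called or not. Since every called gene was separated, non-overlap given below for a called gene adds nothing to its call. The 15 largest increases and 15 largest decreases were also picked for it. The median log2 fold change was 0.01 over all genes and 0.68 in size over the called ones. The number called fell when any 1 of the 4 libraries compared was left out. Each such fit leaves 1 library in a group, so it cannot tell a library's own part from the loss of a replicate.

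The 15 largest increases included 3 eosinophil, basophil and mast cell genes, CLC, CPA3 and IL1RL1. CLC (ENSG00000105205), which forms Charcot-Leyden crystals in eosinophils and basophils, measured 660 and 643 units in VC_DZNep and 13 and 30 in VC. CLC was 31.3-fold higher, the log2 fold change being 4.97 ± 0.301 (SE; limma adjusted p = 5.81e-06), and its libraries were far apart. EMILIN2 (ENSG00000132205, chr18:2847030-2915993), an extracellular matrix glycoprotein, measured 224 and 201 units in VC_DZNep against 30 and 22 in VC, 7.98-fold higher with both VC_DZNep libraries above both VC libraries. HGF (ENSG00000019991, chr7:81699008-81770438), hepatocyte growth factor, measured 483 and 530 units against 106 and 96, a 4.98-fold increase (log2 fold change 2.32 ± 0.148, limma adjusted p = 8.15e-06). SRGN, the core protein of the proteoglycan that packs granule contents, measured 3646 and 4260 units in VC_DZNep against 728 and 728 in VC. The SRGN libraries did not overlap, and the gene was 5.41-fold higher. TLR8, an endosomal receptor for single-stranded RNA, was 72 and 84 in VC_DZNep against 20 and 12 in VC.

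SETD2 (ENSG00000181555), which adds the third methyl group to histone H3 lysine 36, measured 1826 and 1548 units in VC_DZNep against 305 and 290 in VC. It was 5.64-fold higher (log2 fold change 2.50 ± 0.0996, limma adjusted p = 1.06e-06), with no overlap. RANBP2 (chr2:108719481-108785811), a large protein of the cytoplasmic face of the nuclear pore, measured 5185 and 4795 units against 1056 and 1032 and was 4.77-fold higher; RANBP2 has near-identical RGPD copies, so its value is uncertain. GOLGA4, a coiled-coil protein of the Golgi, measured 528 and 772 against 165 and 176, and CENPF, a centromere and nuclear matrix protein of mitosis, measured 1749 and 2168 against 560 and 539. SETD2, RANBP2, GOLGA4 and CENPF each had both VC_DZNep libraries above both VC libraries. The 15 largest increases also held CPA3 and IL1RL1, described below, the actin-like gene ACTL8 (log2 fold change 2.02), KIAA1551 (1.89) and S100A9 (1.78), and the 15 spanned 3.43-fold to 31.3-fold.

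The largest decreases were led by genes of the integrated stress response and of amino acid supply. CHAC1 (ENSG00000128965), which degrades glutathione and is a target of ATF4, measured 10 and 2 units in VC_DZNep against 102 and 84 in VC. Both VC_DZNep values lie in the coarse low end of the scale, so the 16.3-fold decrease (log2 fold change -4.03 ± 0.492, limma adjusted p = 0.00058) is not exact. ADM2, a peptide of the calcitonin family, measured 8 and 13 against 90 and 89. IPO5 (ENSG00000065150), an importin that carries proteins such as ribosomal proteins and histones into the nucleus, measured 728 and 686 units in VC_DZNep against 4795 and 3648 in VC, a 5.91-fold decrease. CD69, an early activation antigen, measured 32 and 39 units against 194 and 127. CLIC4 (56 and 40 against 189 and 174), an intracellular chloride channel protein, and MYO1G (351 and 271 against 1032 and 1120), a myosin of blood cells, were 3.77-fold and 3.48-fold lower. Libraries of the groups did not overlap for any of them. VEGFA, the vascular endothelial growth factor, measured 166 and 174 against 564 and 596 units, 3.40-fold lower, and the 15 largest decreases spanned 3.40-fold to 16.3-fold.

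**Figure D1:**
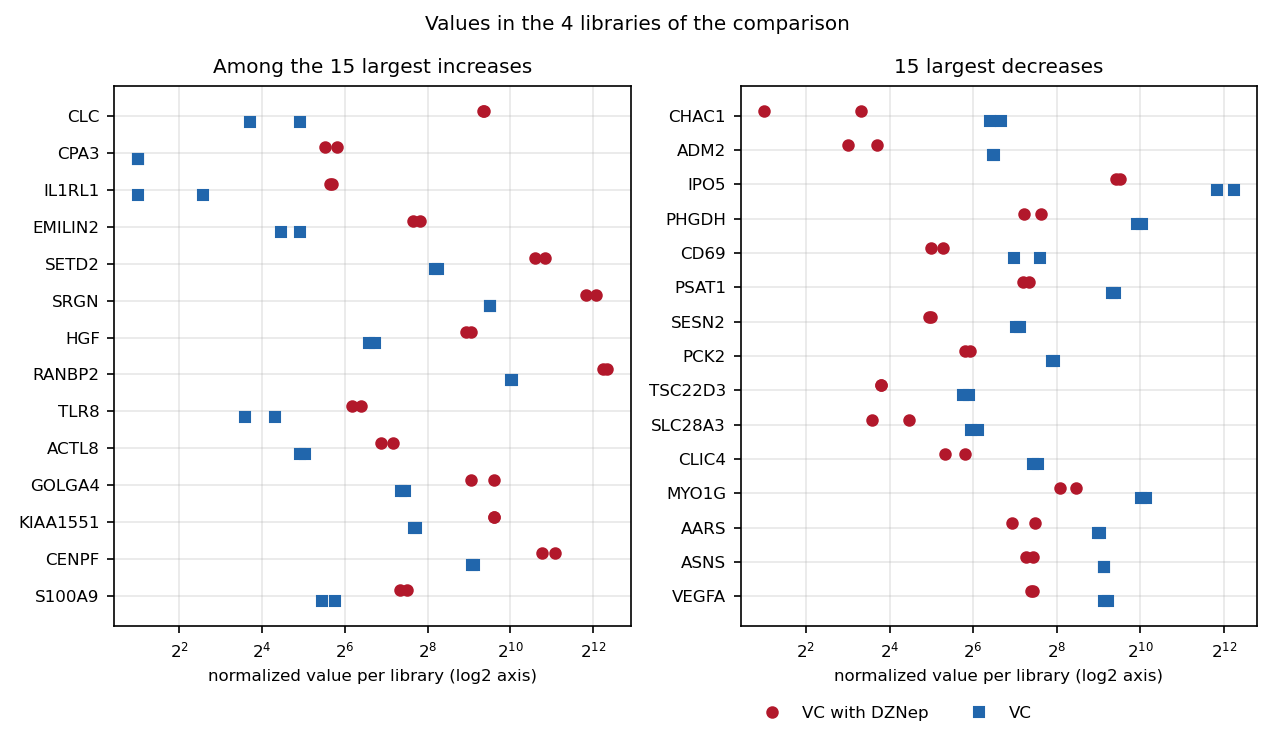
Normalized value on a log2 axis of genes among the 15 largest increases (left) and of the 15 largest decreases (right), with VC_DZNep libraries as circles and VC libraries as squares, 2 each. The 2 groups are apart for every gene shown, as the rule that picked the genes required. Of the genes shown, CLC had the largest increase (660 and 643 against 13 and 30) and CHAC1 the largest decrease (10 and 2 against 102 and 84).

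Many genes of the integrated stress response and of amino acid synthesis, charging and uptake were called lower in VC_DZNep, though not all. Of 23 tested integrated stress response genes, 18 were called lower and none higher, against 8.14% of all tested genes called lower, and their median log2 fold change was -1.13. Of 19 amino acid synthesis genes 11 were called lower (median -0.72), of 19 cytosolic aminoacyl-tRNA synthetases 14 (median -0.93) and of 15 amino acid transporters 8 (median -0.85), with none of the 3 lists holding a gene called higher. The other 8 synthesis genes, 5 synthetases and 7 transporters did not pass, and 6 of the 15 transporters had a positive fold change. The 15 mitochondrial aminoacyl-tRNA synthetases held no called gene, with a median of 0.13.

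In serine synthesis, PHGDH, which catalyses the first committed step, measured 149 and 198 units in VC_DZNep against 962 and 1056 in VC. PHGDH was 5.84-fold lower and PSAT1, the next enzyme, was 4.23-fold lower, at 162 and 146 against 638 and 670. The libraries of the 2 groups were far apart for both. ASNS (chr7:97852118-97872542), asparagine synthetase, measured 154 and 172 units in VC_DZNep against 560 and 560 in VC (log2 fold change -1.78 ± 0.0965, limma adjusted p = 3.97e-06). PCK2 (chr14:24094053-24110598), mitochondrial phosphoenolpyruvate carboxykinase, measured 61 and 56 against 246 and 237. SESN2, a sensor of leucine that restrains mTORC1, measured 31 and 32 against 130 and 139, and TRIB3, a pseudokinase induced by ATF4, 148 and 132 against 402 and 440. No group overlapped for these genes. BCAT1 (chr12:24810022-24949459), cytosolic branched-chain aminotransferase, measured 514 and 489 units in VC_DZNep against 1032 and 979 in VC, a 2.00-fold decrease.

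Among the synthetases, each of which joins an amino acid to its tRNA, EPRS (chr1:219968601-220046658), the glutamyl-prolyl enzyme, measured 784 and 772 units in VC_DZNep against 2168 and 2168 in VC (log2 fold change -1.48 ± 0.0730, limma adjusted p = 2.37e-06). GARS, for glycine, measured 310 and 383 against 1215 and 1056, and AARS, for alanine, measured 178 and 121 against 505 and 520. These were decreases of 3.28-fold and 3.47-fold with no overlap. WARS, for tryptophan, measured 252 and 235 against 752 and 844, and MARS, for methionine, measured 334 and 374 against 1032 and 1172. Among the transporters, SLC1A5, which takes up glutamine and other neutral amino acids, measured 440 and 392 units in VC_DZNep against 1442 and 1278 in VC. SLC7A5, the large neutral amino acid exchanger, measured 412 and 324 against 1099 and 1280, and SLC7A11, the cystine importer, measured 105 and 124 against 380 and 340. The transporters' groups did not overlap.

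**Figure D2:**
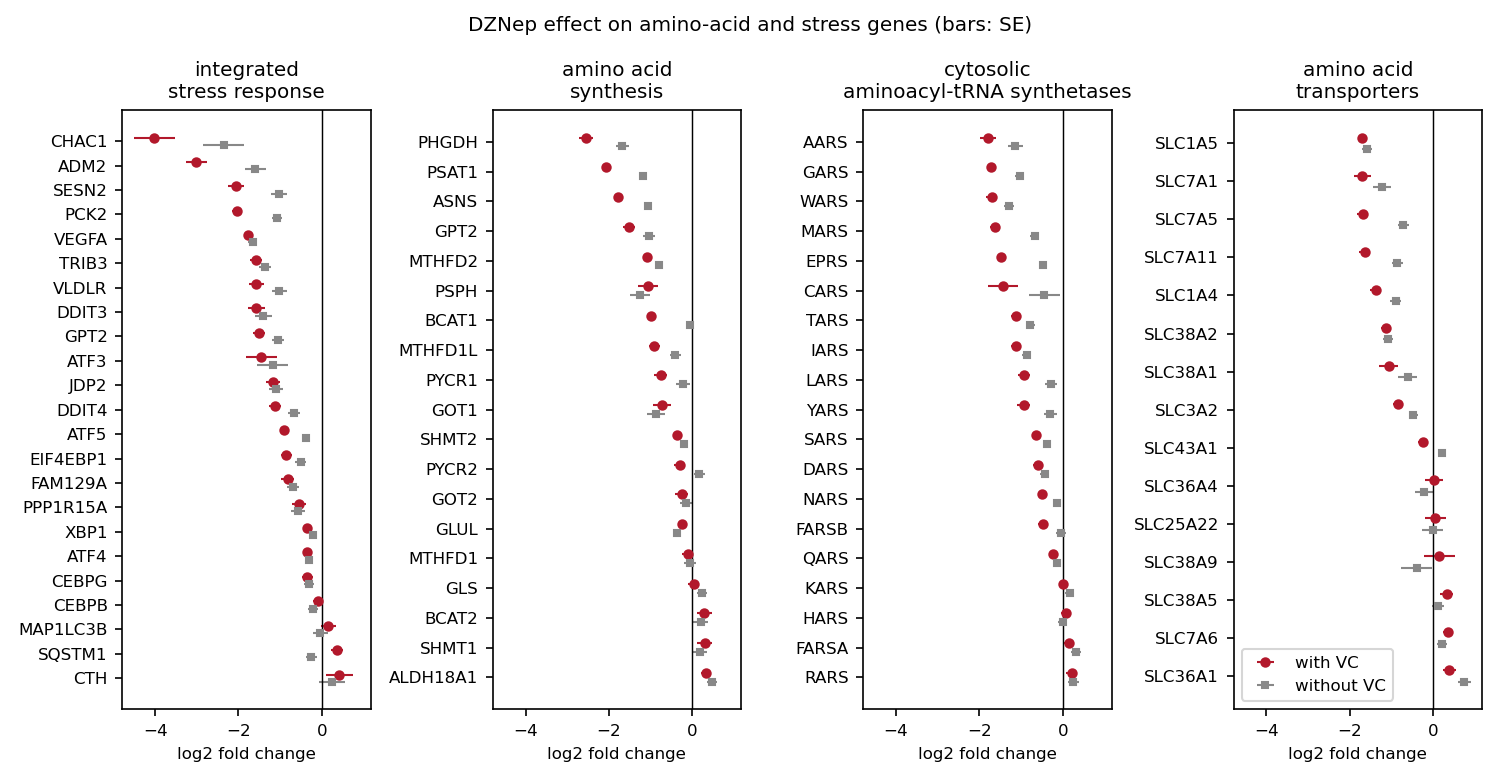
Log2 fold change with its SE for every tested gene of 4 lists, for VC_DZNep against VC (circles, with VC) and DZNep against PBS (squares, without VC). Most genes lie left of 0 in both, with list medians of -1.13, -0.72, -0.93 and -0.85 with VC.

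Of the 6 tested eosinophil, basophil and mast cell genes (21 were listed), 5 were called higher and none lower, against 6.89% of all tested genes called higher, with a median log2 fold change of 2.39. CPA3, mast cell carboxypeptidase, measured 46 and 56 units in VC_DZNep against 2 and 2 in VC, and IL1RL1, the interleukin-33 receptor, measured 50 and 52 against 6 and 2. The VC values of both were at or near the lowest value of the table, so their 17.3-fold and 11.3-fold increases are not exact. GATA2, a transcription factor of haematopoietic progenitors and mast cells, measured 942 and 728 against 348 and 362, a 2.33-fold increase (limma adjusted p = 0.000876). Of 28 tested monocyte and neutrophil maturation genes 14 were called higher, 4 lower and 10 neither, which is 50% and 14.3% against 6.89% and 8.14% of all tested genes, and the median was 0.63. ALOX5AP, which serves leukotriene synthesis, measured 652 and 752 against 263 and 278, and CYBB, the membrane catalytic subunit of the phagocyte oxidase, measured 680 and 698 against 228 and 246. Both were clear of overlap. S100A9, a calprotectin subunit, measured 160 and 180 against 44 and 54, a 3.43-fold increase. CSF3R, the granulocyte colony-stimulating factor receptor, was lower, at 150 and 150 units against 380 and 380. Of the 11 tested primary granule and promyelocyte genes 4 were called higher, 1 lower and 6 neither, the lower one being CTSG (cathepsin G), at 8 and 7 against 42 and 43. ITGAM, a surface marker of myeloid maturation, did not pass the test, at 128 and 120 against 80 and 128.

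Of 29 tested lysosomal genes, 10 were called higher (34.5%) and 1 lower (3.45%), with a median of 0.27, against 6.89% and 8.14% of all tested genes. The lysosomal proteases CTSA, at 278 and 326 units in VC_DZNep against 137 and 132 in VC, and CTSD, at 254 and 251 against 126 and 137, were 2.23-fold and 1.91-fold higher. The lysosomal membrane protein gene LAMP1 was 1.47-fold higher. Of 49 ribosome biogenesis genes, 9 were called higher (18.4%) and 1 lower (2.04%), with a median of 0.22. The one called lower was NPM1, the nucleolar histone chaperone, at 2021 and 2170 units against 4795 and 4795, but NPM1 has many processed pseudogenes that share its sequence. RRP1B, a nucleolar protein, was higher, at 718 and 741 against 444 and 395.

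Of 48 DNA replication genes 11 were called lower (22.9%), none higher and 37 neither, with a median of -0.21. Of 20 G1 cyclins, kinases and inhibitors 7 were lower (35%), none higher and 13 neither, with a median of -0.48. Among all tested genes 8.14% were called lower and 6.89% higher. CDT1, a replication licensing factor, measured 170 and 196 units against 316 and 336, RRM2, a ribonucleotide reductase subunit, measured 120 and 147 against 252 and 254, and CCND3, cyclin D3, measured 172 and 174 against 410 and 387. No group overlapped for these. Of 43 mitosis genes 4 were higher and 4 lower, 9.30% each, which is near the shares over all tested genes. MKI67, the Ki-67 proliferation antigen, was 1.65-fold higher, at 4267 and 4267 against 2460 and 2726, while AURKB, the mitotic kinase aurora B, measured 34 and 38 against 88 and 71, a log2 fold change of -1.12. MYB, a transcription factor of immature blood cells, was higher (1012 and 979 against 680 and 578). MYC, at 872 and 845 against 708 and 686, did not pass the test (limma adjusted p = 0.0583).

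Among growth-factor-induced early genes, 9 of 22 were called lower (40.9%) and none higher (median -0.27), against 8.14% of all tested genes called lower. JUN, an AP-1 subunit, measured 33 and 39 units against 119 and 86, and TSC22D3, the glucocorticoid-induced leucine zipper protein, measured 14 and 14 against 54 and 60. In the BCL2 family, which sets the threshold for apoptosis, 4 of 17 were called lower (23.5%) and none higher. BCL2 itself, an inhibitor of apoptosis, measured 130 and 96 against 223 and 176, and the promoters of apoptosis PMAIP1 (46 and 60 against 105 and 108) and BAX (40 and 47 against 80 and 86) were lower too. The BCL2 call was lost with the 4 libraries of the comparison alone, without VC_DZNep replicate 2 and without VC replicate 1, that of PMAIP1 without VC_DZNep replicate 1, and that of BAX without any 1 of the 4 libraries. The limma adjusted p over the alternatives reached from 0.0029 to 0.0944 for BCL2, from 0.00298 to 0.0536 for PMAIP1 and from 0.00905 to 0.0993 for BAX. MCL1 did not pass, at 468 and 472 against 444 and 444.

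Of 25 cholesterol synthesis genes 6 were lower (24%) and 1 higher (4%), and of 13 fatty acid synthesis genes 5 were lower (38.5%) and none higher, against 8.14% of all tested genes called lower and 6.89% higher. HMGCS1, an early enzyme of the sterol pathway, measured 170 and 190 units against 334 and 335, and FADS1, a desaturase, measured 28 and 34 against 90 and 82. Of 28 NRF2 antioxidant genes 7 were called higher (25%) and 5 lower (17.9%). Within that list TKT, the pentose phosphate enzyme transketolase, measured 1172 and 1122 units in VC_DZNep against 3114 and 3114 in VC, a 2.71-fold decrease. Catalase, CAT, was 1.64-fold higher. TFRC, the transferrin receptor, measured 1377 and 1443 against 718 and 844, and NCOA4, the receptor for ferritin breakdown, measured 1548 and 1904 against 962 and 845. The groups did not overlap for TKT, TFRC or NCOA4.

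Of 29 endoplasmic reticulum folding genes 8 were called higher (27.6%) and 4 lower (13.8%), with a median of 0.19. Of 21 heat shock genes 5 were higher (23.8%) and 2 lower (9.52%), with a median of 0.19. Over all tested genes these shares were 6.89% and 8.14%, so the share of heat shock genes called lower was near that of all genes. HYOU1, a chaperone of the endoplasmic reticulum, measured 686 and 765 units in VC_DZNep against 398 and 395 in VC (log2 fold change 0.87 ± 0.0890, limma adjusted p = 0.00019). The mitochondrial chaperonin HSPD1 was lower, at 1056 and 1324 against 1904 and 1904, and the cytosolic chaperone HSPA8 was higher, at 1216 and 1172 against 844 and 845. The groups were apart for all 3 genes. HSPD1 and HSPA8 have processed pseudogenes, so their values are uncertain.

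Of 23 glycolysis genes 4 were higher (17.4%) and 3 lower (13.0%), against 6.89% and 8.14% of all tested genes. Of 73 oxidative phosphorylation genes 4 were higher (5.48%) and 6 lower (8.22%), near those shares. LDHB, a lactate dehydrogenase subunit, measured 5185 and 4264 units against 7550 and 7550, and PFKL, the liver form of phosphofructokinase, measured 370 and 300 against 540 and 560. GPI, glucose-6-phosphate isomerase, was higher, at 476 and 578 against 312 and 340. No group overlapped for LDHB, PFKL or GPI. Of 79 cytosolic ribosomal protein genes 9 were lower (11.4%) and none higher. Of 72 mitochondrial ones 5 were higher (6.94%), near the share over all tested genes, and 2 lower (2.78%). RPL28 had the smallest p of the cytosolic ones, at 2724 and 2724 against 4264 and 4264 (log2 fold change -0.65). Many ribosomal protein genes share reads with pseudogenes and are uncertain for that reason.

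In nuclear transport, 4 of 26 genes were called lower (15.4%) and 1 higher (3.85%), against 8.14% and 6.89% of all tested genes. Besides IPO5, the lower ones included XPOT, which exports tRNA, at 548 and 476 units in VC_DZNep against 1376 and 1280 in VC, and the importin IPO7, at 1443 and 1903 against 3112 and 2724. Both had all VC_DZNep values below all VC values. Of 20 myeloid transcription factor genes 3 were higher and 3 lower (15% each), among them RUNX2, at 384 and 384 against 200 and 226. Of 16 histone genes 4 were higher (25%) and 2 lower (12.5%), with HIST1H2BK at 122 and 124 against 54 and 42 and HIST1H4I at 69 and 61 against 26 and 14. Histone genes are near-identical copies of each other, so these values are uncertain. Each remaining list held at most 5 called genes. Their counts are given beside the 6.89% higher and 8.14% lower of all tested genes and are not read further. Iron handling held 3 higher and 2 lower of 16, and methionine cycle and polyamines 2 and 2 of 16. Interferon-stimulated genes held 2 and 0 of 19, and nuclear factor kappa B and its targets 1 and 2 of 22. Death receptors and caspases held 1 and 1 of 25, hypoxia response 0 and 1 of 15, and antigen presentation 0 and 1 of 3.

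The RNA of the enzymes that DZNep is known to act on was examined next. AHCY measured 680 and 566 units in VC_DZNep against 728 and 784 in VC, and EZH2 measured 146 and 148 against 218 and 200. The libraries did not overlap, but neither gene passed the test over all genes (limma adjusted p = 0.103 for AHCY and 0.072 for EZH2, with log2 fold changes of -0.28 ± 0.108 and -0.50 ± 0.170). Of the 10 tested PRC2 genes 1 was called higher, JARID2, an accessory subunit (log2 fold change 0.47), and none lower. The JARID2 call was lost without a trend of the prior variance and without any 1 of the 4 libraries compared (limma adjusted p over the alternatives 0.0184 to 0.139). Of 27 histone lysine methyltransferases 3 were higher (11.1%) and 2 lower (7.41%), and of 20 histone lysine demethylases 2 were higher (10%) and 1 lower (5%). Of 11 DNA methylation enzymes 1 passed (9.09% lower), DNMT3A, the de novo methyltransferase, at 58 and 59 units against 86 and 88. The DNMT3A call was lost without any 1 of the 4 libraries compared (limma adjusted p over the alternatives 0.0212 to 0.141). These shares, and that of PRC2, are near the 6.89% higher and 8.14% lower over all tested genes. DNMT1, the maintenance methyltransferase, did not pass (1012 and 870 against 1172 and 1215, adjusted p = 0.0563). In DZNep against PBS, EZH2 (log2 fold change -0.76, limma adjusted p = 0.0165) and DNMT1 (-0.79, adjusted p = 0.00168) were called lower, and AHCY was not called. There, 1 PRC2 gene was higher and 1 lower, and 2 DNA methylation enzymes were lower and 0 higher. The difference between the effects with and without vitamin C did not pass for EZH2 or DNMT1 (limma adjusted p = 0.84 and 0.597).

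**Figure D3:**
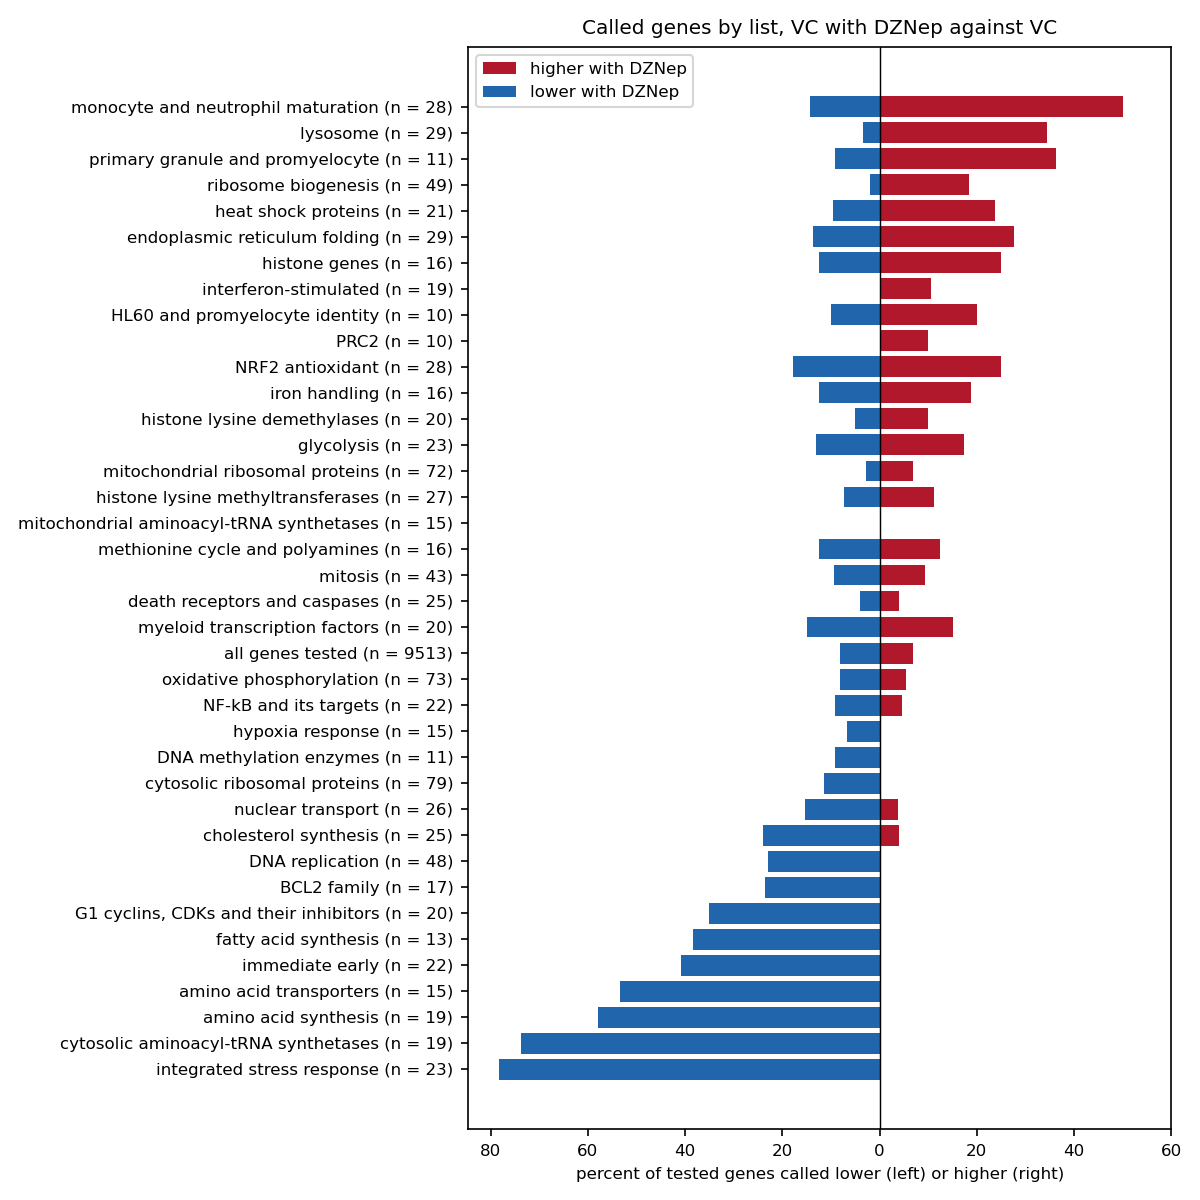
Share of tested genes called lower (left of 0) or higher (right of 0) in VC_DZNep against VC, for each list with at least 10 tested genes. The integrated stress response list has 18 of 23 genes called lower and none higher, and the mitochondrial aminoacyl-tRNA synthetases have no called gene.

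The effect of DZNep with vitamin C was set beside its effect without it, DZNep against PBS, which uses 4 other libraries. There, 1242 genes (13.1%) were called, 611 higher (6.42%) and 631 lower (6.63%). Of the genes called in both comparisons, 718 in all, every one moved in the same direction, which is 50.2% of the 1429 called with vitamin C and 57.8% of the 1242 called without it. Of the 711 called with vitamin C alone, 655 had the same sign without it. Across 9513 genes, the log2 fold changes had a Pearson r of 0.696 and a Spearman rho of 0.637, a description only. The difference between the effects was tested as an interaction, and 2 genes passed (0.021%), against 740 at an unadjusted p under 0.05. For 1080 of the 1429 genes the 95% interval of the difference lay within 2-fold. For the other called genes the interval reached 2-fold or more.

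Both genes that passed the interaction are in the amino acid programme. In both, the log2 fold change with DZNep was more negative with vitamin C than without it, so the decrease was larger. EPRS measured 784 and 772 units in VC_DZNep against 2168 and 2168 in VC, and 1443 and 1377 in DZNep against 1903 and 2021 in PBS. The effect with vitamin C minus that without it was -1.001 ± 0.103 on the log2 scale (SE; limma adjusted p = 0.0141, interval -1.23 to -0.77). BCAT1 measured 1074 and 979 in DZNep against 1032 and 1099 in PBS, which overlap, whereas its VC_DZNep and VC libraries did not overlap. The difference for BCAT1 was -0.948 ± 0.120 (limma adjusted p = 0.0492). The EPRS call was lost in 6 of 14 alternatives: without a trend and without VC replicate 1 or 2, DZNep replicate 1 or 2 or PBS replicate 1. The BCAT1 call was lost in 10 alternatives, among them leaving out any 1 of the 8 libraries. The limma adjusted p over the alternatives lay between 0.0134 and 0.357 for EPRS and between 0.0365 and 0.503 for BCAT1. The next genes by p, PSAT1, DDX3X and MARS, did not pass (adjusted p = 0.108, 0.108 and 0.199). List medians with and without vitamin C were -1.13 and -0.69 for the integrated stress response, -0.93 and -0.37 for the cytosolic synthetases and -0.85 and -0.48 for the transporters. Genes called lower numbered 18 and 16 of 23, 14 and 9 of 19, and 8 and 7 of 15 in these lists. No difference between lists was tested.

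**Figure D4:**
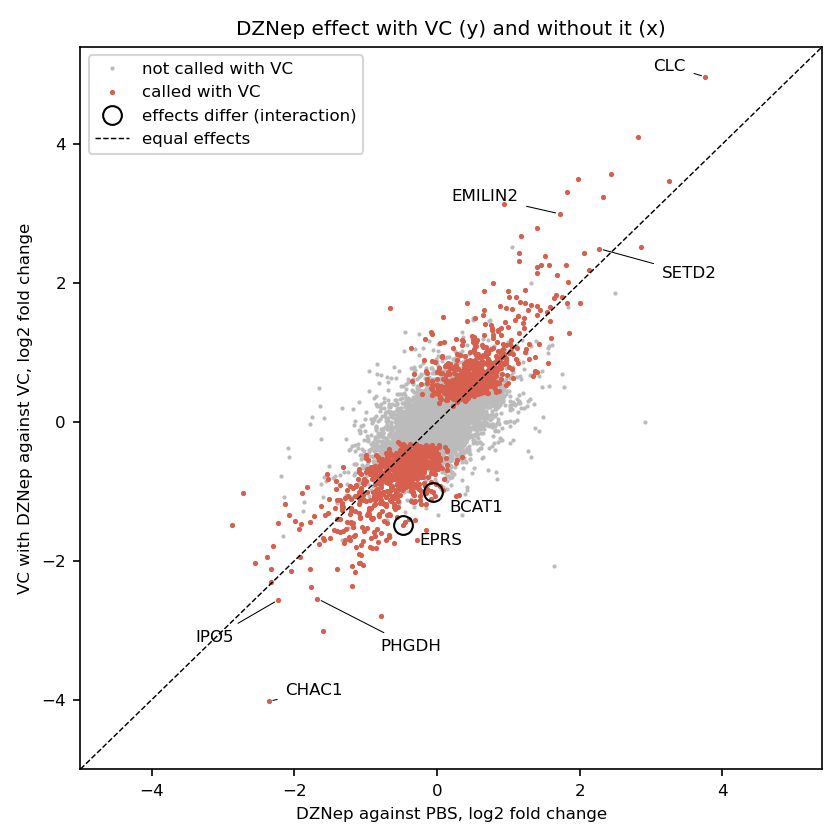
Log2 fold change of VC_DZNep against VC (y) plotted against that of DZNep against PBS (x) for all 9513 genes, with genes called with VC in red and genes called for the interaction circled. Points scatter about the line of equal effects (Pearson r 0.696), with EPRS and BCAT1 below it. Genes not called for the interaction also lie off the line, such as CHAC1 below it (-4.03 with VC, -2.36 without) and CLC above it (4.97 and 3.77).

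After the values were seen, the 15 largest increases were noticed to include genes with very long coding exons, and the tested genes were split by their longest coding exon in the GENCODE 29 annotation. This description was chosen after the data were seen, among several gene features, and has no test. Over all tested genes, Spearman's rho of the longest coding exon with the log2 fold change was 0.048 with vitamin C and 0.005 without it. For the percent of G and C bases in the longest transcript it was -0.079 and -0.095. With vitamin C, the median of that percent was 51.5 in genes called lower and 47.5 in genes called higher or not called. Of the 123 genes with a longest coding exon over 3000 bases, 27.6% were called higher and 8.13% lower, with a median log2 fold change of 0.20, against 6.89% and 8.14% of all tested genes. In the shorter classes, the share called higher lay between 5.35% and 11.7%. Without vitamin C, 19.5% of those 123 genes were called higher and 5.69% lower. Of the 15 largest increases, 7 had such an exon, among them RANBP2 (5152 bases), KIAA1551 (5002), SETD2 (4367), GOLGA4 (4238), CENPF (3404) and TLR8 (3120), while the longest coding exon among the 15 largest decreases was 606 bases. MKI67, called higher but not among the 15 largest increases, also had a coding exon over 3000 bases (6845 bases). Exon length was not compared with any property of the libraries, and its part in the results was not tested.

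**Figure D5:**
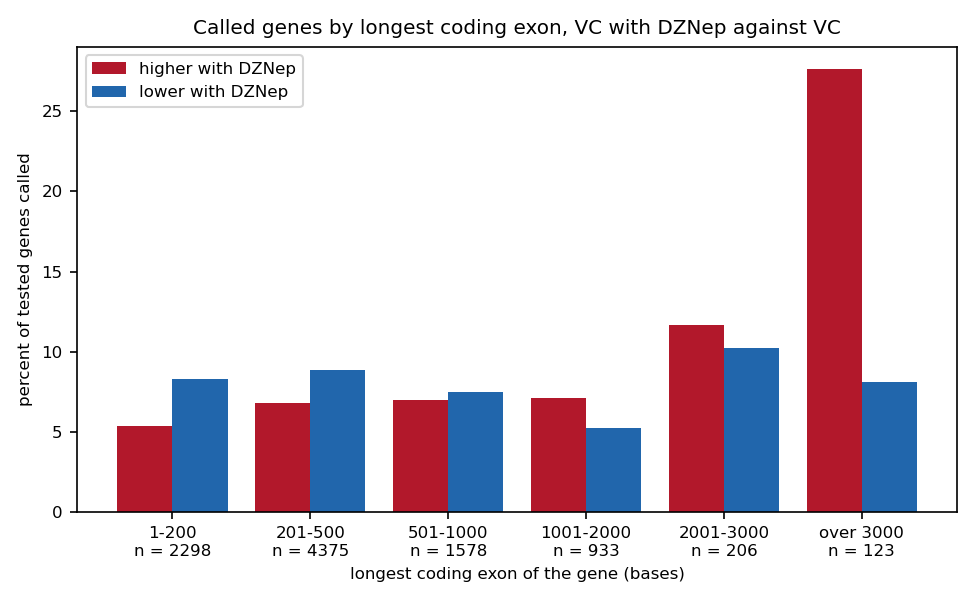
Percent of tested genes called higher (red) or lower (blue) in VC_DZNep against VC, by the longest coding exon of the gene in bases. The 123 genes over 3000 bases have 27.6% called higher and 8.13% lower.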

How the data were processed

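RNA was sequenced from 8 HL60 libraries. DESeq 1.18.1, HTSeq 0.6.0, SAMtools 1.3.1 and HISAT2 2.0.4 are listed in the submitters' processing notes, as are hg38 and GRCh38. The strand setting of the counting is not given in the sources used here, so overlapping and antisense genes cannot be told apart. The deposited values are scores, not counts: the table's name says they were normalized with EDASeq by the authors, and the values are whole numbers that share 1 distribution in all 8 libraries. The drug-free columns, named control, were taken as PBS. All 8 libraries were fitted in limma 3.58.1 (R 4.3.3) on log2(value + 1), 1 mean per group, with an intensity trend, for genes with a mean of at least 10. Fold changes are on that scale, which understates those of low genes. A gene was called at a Benjamini-Hochberg adjusted p under 0.05, two-sided, over all 9513 genes. The code of the fit was run on simulated data with independent noise, which cannot show whether the libraries of a group were separate cultures. Named genes were the 15 largest increases and 15 largest decreases whose higher group averaged 50 or more and whose libraries were separated, up to 4 genes per list by p (all of lists with up to 5), the 5 smallest interaction p-values and a fixed set. Genes outside the rule were named where a count, the promoter element or the exon description singled them out. The members and the 42 lists were chosen with earlier results of these data known. Positions are from GENCODE 29, promoters from RefSeq GRCh38.p14. Alternatives were another pseudocount, filter, prior, scaling, sample set and replicate block, and leaving out each library. Some genes that the rule names are not reported here.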

Additional observations from a re-analysis of the deposited data

Results flagged for a closer look

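The effect of DZNep on 2 genes differed with vitamin C by a limma interaction test. For EPRS the effect with vitamin C minus that without it was -1.001 on the log2 scale (limma adjusted p = 0.0141), and for BCAT1 it was -0.948 (adjusted p = 0.0492). Both differences are negative, and both calls depend on the setting: EPRS was called in 8 of 14 alternatives and BCAT1 in 4. No cause was tested.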

How the results depend on the processing

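Of 144 called genes named by the rule, 90 were called in every alternative, 54 lost the call in some, and none reversed. For VC_DZNep against VC, 928 genes passed without an intensity trend, and leaving out 1 library gave 501 to 1532. At least 2-fold, 195 passed with a pseudocount of 10 and 166 with a mean of at least 50, with 208 to 312 when 1 library was left out. The interaction called 1 gene with a mean of at least 50 and 0 without a trend (740 had an unadjusted p under 0.05 in limma as reported), and 0 to 2 when 1 library was left out. For DZNep against PBS, 739 passed without a trend and 439 to 1030 with 1 library left out. The samples share only a replicate number (same-numbered VC_DZNep and VC libraries deviated with a correlation of 0.0124, and the 6 group pairs with -0.0467 to 0.0910). With a replicate block 1508 genes passed for VC_DZNep against VC, 1367 for DZNep against PBS and 3 for the interaction. The cause of these shifts was not tested. Depth is not known, low values move in coarse steps, and the steps above 200 were not measured.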
